A study of Homo sapiens with 14 samples.

Results

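The comparison described here sets 3 libraries of cardiomyocytes, made in 2D culture and sorted as positive for cardiac troponin T (TNNT2+), against 2 libraries of undifferentiated cells at day 0. These are 5 of the 14 libraries of the study, chosen by their labels and not by any measured value. Each library counts the guides of a pooled CRISPR screen, and all 11364 guides of the 2D table entered. A value below thus reflects how frequent guides against a given gene were among the reads, and not how strongly that gene was expressed. Of 1633 target names, 1621 with at least 3 guides were tested as genes, and 1574 names had 7 guides. The 3 libraries of 2D TNNT2- cells served for comparison only.

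In such a screen each cell carries 1 or a few guide cassettes in its genome, which stay with the cell and its descendants whatever they become. Cas9 cuts the gene that the guide matches. Guides that change in share between a starting and a final population can mark genes whose loss altered survival, division or cell fate. A share can also change for other reasons. Directed cardiac differentiation takes pluripotent cells through primitive streak (EOMES, MIXL1, TBXT), cardiac mesoderm (MESP1) and heart progenitors (NKX2-5, ISL1, GATA4, TBX5, HAND1, HAND2) to beating cells that make sarcomere proteins such as troponin T. A knockout that blocks one of these steps would leave fewer of its cells in the TNNT2+ fraction, and one that favours growth or cardiac fate would leave more.

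All groups came from H9, an established human pluripotent stem cell line, with a doxycycline-inducible Cas9 and a transduced library of guides against transcription factors. The labels give the genotype as WT for each of them, and guide reads in the day 0 libraries show that the controls carried the guide library as well. The day 0 group was undifferentiated H9 (2 replicates). The TNNT2+ and TNNT2- groups were the fractions of 2D cardiomyocyte differentiations at day 25 (3 replicates each), and the labels call these differentiations biological replicates. Nothing says whether the day 0 libraries came from separate cultures, so p-values may measure a technical spread. The labels do not give when doxycycline was added relative to the day 0 harvest, nor how many H9 clones were used. Genomic DNA holds no transcripts, so the TNNT2+ label rests on the sort and could not be set against marker genes here. A guide's share is relative to all other guides of its library, so loss of its cells and growth of others cannot be told apart, nor can death, slower division and failure to become TNNT2+.

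One day 0 library stood apart from the other libraries before any comparison was made. Reads per library were 28539095 and 25384931 at day 0 and 23108139, 23308770 and 26510994 in the TNNT2+ replicates. In day 0 replicate 2, 3692 guides (32.5%) had fewer than 10 reads, against 1.17% in day 0 replicate 1 and 3.19%, 0.977% and 0.748% in the TNNT2+ replicates. In that library 255 genes had 4 or more guides under 10 reads, and in the other 4 libraries no gene did. The Gini index of guide reads, which is 0 when all guides are equally frequent, was 0.356 and 0.626 at day 0 and 0.410, 0.359 and 0.354 in TNNT2+ cells. Day 0 replicate 2 was the most uneven, and the other day 0 library lay within the range of the TNNT2+ libraries. A two-sided exact permutation test of this index between the groups gave p = 0.3, and 3 against 2 libraries cannot go below 0.1.

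The 3692 guides near 0 in day 0 replicate 2 were present elsewhere. Their median was 56.7 CPM, that is reads scaled to 1000000 per library, in day 0 replicate 1 and 52.9, 56.2 and 56.9 CPM in the TNNT2+ replicates. The other guides had medians of 88.9 CPM and 85.1, 87.8 and 87.8 CPM. Guides missing from that day 0 library were thus somewhat less frequent than the rest in all 4 other libraries, and far from absent. The size factor behind the deposited values gave this library a mean of 3130.2 per guide, against 1712 to 1808 in the other 4. On the deposited scale the median log2 fold change of all genes, TNNT2+ over day 0, was -0.37. It was -0.80 against replicate 2 alone, 0.00728 against replicate 1 alone and 0.036 against both with reads scaled to library totals. Gene values below are log2 fold changes minus this median of all genes, with the standard error of the fit, unless said otherwise. Not shifted are DESeq2 fold changes, those of TNNT2+ against TNNT2-, and for FOXO1 the value with library totals and that of 0.84. The tests themselves are of the unshifted values. Levels are CPM summed over a gene's guides, given in order of replicate number.

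**Figure D1:**
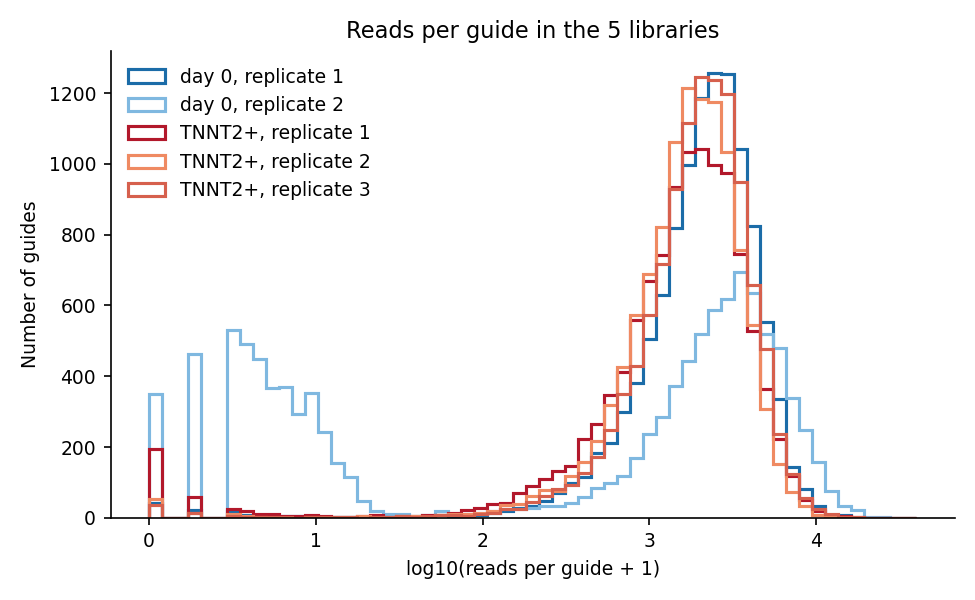
Histogram of log10(reads per guide + 1) for the 11364 guides, with 1 line per library. Day 0 replicate 2 has a separate group of guides at the left, 3692 of them under 10 reads, which the other 4 libraries lack.

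Day 0 replicate 1 resembled the TNNT2+ libraries about as closely as these resembled each other. Across guides, Pearson correlations of log2(value + 10) between day 0 replicate 1 and the TNNT2+ replicates were 0.458, 0.561 and 0.568, and among the TNNT2+ replicates 0.480, 0.493 and 0.574. Those of day 0 replicate 2 with the TNNT2+ replicates were 0.252, 0.297 and 0.309, and the day 0 libraries correlated at 0.292. These are descriptions across 11364 guides that share their libraries. For guides summed per gene, the SD over genes of the log2 CPM difference was 0.758 between the day 0 libraries. It was 0.318 to 0.391 between day 0 replicate 1 and a TNNT2+ library, and 0.309 to 0.387 between a pair of TNNT2+ libraries. The spread of genes between day 0 replicate 1 and a TNNT2+ library was thus about that between TNNT2+ libraries.

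No gene passed the limma test as gained or lost in TNNT2+ cardiomyocytes against the day 0 cells together. Guides against FOXO1, a forkhead factor held back by insulin and AKT signalling, were more frequent in all 3 TNNT2+ libraries than in both day 0 libraries. Guides against IRX5, an Iroquois homeobox factor with a role in ventricular repolarisation, and against the BTB zinc finger genes ZBTB49 and ZBTB7A were less frequent in all 3. Guides against the cardiac regulators NKX2-5, GATA4, TBX5, HAND1, HAND2 and MEF2C had values between -0.51 and 0.23 relative to the median of all genes. By limma on log2(summed value + 10) with Benjamini-Hochberg adjustment, 0 of 1621 genes (0%) were called higher and 0 (0%) lower at 0.05, and the smallest adjusted p was 0.548. Before adjustment, genes with p under 0.05 numbered 14 higher (0.864%) and 112 lower (6.91%). With library totals this split was 65 (4.01%) and 38 (2.34%), with 0 called and a smallest adjusted p of 0.670. In CPM, 173 genes (10.7%) were higher and 187 (11.5%) lower in all 3 TNNT2+ libraries than in both day 0 libraries.

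The tools differed on these calls. edgeR and rank aggregation of guide p-values called 0 genes, while DESeq2 on recovered reads called 7 higher and 4 lower. Among the higher were FOXO1 at 0.79 (DESeq2 adjusted p = 0.00168), SOX12 at 0.97 (DESeq2 adjusted p = 0.00168) and ZNF292 at 1.32 (DESeq2 adjusted p = 0.0343). FOS and TBP, which encodes the TATA-binding protein, were also among them, at 0.64 and 0.72. The lower were ZBTB7A at -1.06, MSANTD3 at -1.21, ZBTB49 at -0.73 and ZNF157 at -0.62, with DESeq2 adjusted p between 0.0118 and 0.0343. SOX12, FOS, TBP and ZNF157 were named here after their values were seen.

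Guides against FOXO1 (chromosome 13, 40555667 to 40666641, GRCh38.p14 gene table) summed to 728 and 667 CPM at day 0 and 1059, 1329.6 and 1281 CPM in TNNT2+ cells. Every TNNT2+ library was above both day 0 libraries, and the day 0 libraries were close to each other. FOXO1 had a value of 0.77 ± 0.46 (adjusted p = 0.690 in the limma gene fit), 0.76 against day 0 replicate 1 alone and 0.83 against replicate 2 alone. With library totals it was 0.80 ± 0.20 (limma adjusted p = 0.670). Leaving out any 1 library moved it between 0.71 and 0.88. It ranged more widely with the way guides were combined, from 0.31 as the median of the guides' fitted changes in rank aggregation to 1.56 as the median of guide log2 values. Against day 0 replicate 1 alone it passed when TNNT2+ replicate 1 was left out (0.84, limma adjusted p = 0.0206), the only gene called in any of the fits against that library.

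The FOXO1 guides did not all behave alike. Guide 1 had 82.4 and 25.2 CPM at day 0 and 206, 439 and 284 CPM in TNNT2+ cells. Guide 2 had 45.0 and 0.551 CPM at day 0 and 119, 277 and 251 CPM in TNNT2+ cells. These 2 guides were higher in all 3 TNNT2+ libraries than in both day 0 libraries. Guide 6 had 200.2 and 0.551 CPM at day 0 and 215, 125 and 235 CPM in TNNT2+ cells, so that it was higher against day 0 replicate 2 alone. Guide 7 was rare throughout, at 18.3 and 0 CPM at day 0 and 9.78, 10.9 and 0 CPM in TNNT2+ cells. By mean log2 value, 4 of the 7 guides were higher in TNNT2+ cells than in day 0 replicate 1, and 4 higher than in replicate 2.

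In the TNNT2- fraction of the same differentiations, FOXO1 guides were more frequent than in any TNNT2+ library in replicates 1 and 2. They had 2283, 2476 and 1279 CPM in TNNT2- replicates 1 to 3, and replicate 3 lay within the range of the TNNT2+ libraries. TNNT2+ minus TNNT2- was -0.64 ± 0.16 on the log2 scale (limma adjusted p = 0.236), and 0 of 1621 genes (0%) were called in either direction, with 47 higher (2.90%) and 22 lower (1.36%) at an unadjusted p under 0.05; edgeR also called 0. FOXO1 passed without TNNT2- replicate 3 (-0.95, limma adjusted p = 2.26e-06). Without TNNT2+ replicate 2, 2 genes passed as higher in TNNT2+ cells, among them MSANTD4 at 0.90 (limma adjusted p = 0.0176).

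The genes that led toward loss in TNNT2+ cells had similar or higher counts in the second day 0 library. Guides against IRX5 (chromosome 16, 54930865 to 54934485) summed to 512 and 509 CPM at day 0 and 275, 232 and 327 CPM in TNNT2+ cells. All 3 TNNT2+ values lay below both day 0 values, which were nearly equal as sums but not guide by guide. Guide 1 alone made up 154 CPM in day 0 replicate 1 and 405 CPM in replicate 2. Guides 3, 4 and 7 had 9, 3 and 0 reads in replicate 2. The IRX5 value was -0.92 ± 0.43, and 6 of 7 guides were lower than in day 0 replicate 1, but 3 of 7 lower than in replicate 2 (limma adjusted p = 0.548). Without the most abundant IRX5 guide it was -0.30. With all guides it was -0.88 against day 0 replicate 1 alone and -0.92 against replicate 2 alone. Guides against ZBTB49 (chromosome 4, 4290251 to 4321783) summed to 648 and 643 CPM at day 0 and 360.1, 389 and 439 CPM in TNNT2+ cells. Here too the day 0 libraries were close and the TNNT2+ libraries all lower. ZBTB49 had a value of -0.75 ± 0.38, -0.70 against replicate 1 alone and -0.74 against replicate 2 alone, with 7 of 7 guides below day 0 replicate 1 and 4 of 7 below replicate 2. As the mean of guide log2 values it was -1.47.

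Guides against ZBTB7A (chromosome 19, 4043303 to 4066899), a repressor of fetal globin genes and of glycolysis, summed to 1039.8 and 1806 CPM at day 0 and 686, 724 and 681 CPM in TNNT2+ cells. The TNNT2+ libraries were tightly grouped below both day 0 libraries, which were themselves far apart. ZBTB7A had a value of -1.01 ± 0.49, -0.56 against replicate 1 alone and -1.41 against replicate 2 alone. Guides against MSANTD3, a Myb/SANT domain gene, summed to 745 and 1746 CPM at day 0 and 512, 588 and 543 CPM in TNNT2+ cells. Its value of -1.09 ± 0.50 became -0.43 against replicate 1 alone. Guides against BHLHA15, the MIST1 factor of secretory cells, summed to 444 and 557 CPM at day 0 and 165, 401 and 243 CPM in TNNT2+ cells. This gene was below both day 0 libraries in each TNNT2+ library but uneven among them, and 2 of its guides had under 10 reads in TNNT2+ replicate 1. Its value was -1.01 ± 0.48, with 7 of 7 guides below day 0 replicate 1 and 4 of 7 below replicate 2. The remaining genes of the 8 that led toward loss were SAFB2, a nuclear matrix and RNA-binding protein, at -0.88 ± 0.41, TBX15, a T-box factor of skeletal development, at -0.77 ± 0.42, and KMT2B, a histone H3 lysine methyltransferase, at -0.77 ± 0.42. All 8 were lower in every TNNT2+ library than in both day 0 libraries, as were 11.5% of all genes. They shared an adjusted p of 0.548 in the limma gene fit. IRX5, ZBTB49, ZBTB7A, MSANTD3 and BHLHA15 were also lower in every TNNT2- library than in both day 0 libraries, while SAFB2, TBX15 and KMT2B were not. In TNNT2- cells ZBTB7A guides had 706, 633 and 635 CPM and IRX5 guides 425, 365 and 318 CPM. TBX15 turned positive when guide log2 values were averaged in place of summed counts.

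The genes that led toward gain rested largely on day 0 replicate 2. Guides against CDX2, a caudal homeobox factor of trophectoderm and hindgut, summed to 432 and 32.1 CPM at day 0 and 508, 502 and 588 CPM in TNNT2+ cells. Day 0 replicate 1 lay near the TNNT2+ libraries, and 5 of the 7 CDX2 guides had under 10 reads in replicate 2. CDX2 had a value of 2.13 ± 0.60, but 0.32 against replicate 1 alone and 4.0 against replicate 2 alone. Guides against FOXA2, a pioneer factor of endoderm, summed to 519.7 and 85.9 CPM at day 0 and 703, 768 and 521 CPM in TNNT2+ cells. Its value of 1.60 ± 0.43 became 0.35 against replicate 1 alone. Guides against ZBTB20 summed to 296 and 1.69 CPM at day 0 and 484, 569 and 532 CPM in TNNT2+ cells. ZBTB20, a zinc finger repressor, had a value of 4.41 ± 1.55 and 0.85 against replicate 1 alone, where all 3 TNNT2+ libraries were also higher.

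Guides against ZNF292, a large zinc finger protein, summed to 459 and 186 CPM at day 0 and 981, 721 and 731 CPM in TNNT2+ cells. All TNNT2+ libraries were above both day 0 libraries, but 4 of the 7 guides were nearly absent from replicate 2, with 15, 10, 10 and 3 reads. ZNF292 had a value of 1.42 ± 0.39, 0.82 against replicate 1 alone and 2.07 against replicate 2 alone. The other 4 were ETV5, an ETS factor downstream of FGF signalling, at 1.84 ± 0.54, ZNF354A at 1.66 ± 0.48, PRDM6, a repressor of smooth muscle differentiation, at 2.14 ± 0.70, and ZNF135 at 2.15 ± 0.75. Against replicate 1 alone these 4 had 0.044, 0.47, 0.079 and -0.45, so that ZNF135 changed sign. Of the 8, CDX2, FOXA2, ZNF292, ZNF354A and ZBTB20 were higher in all 3 TNNT2+ libraries than in both day 0 libraries. These genes and PRDM6 were also higher in every TNNT2- library than in both day 0 libraries, while ETV5 and ZNF135 were not.

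**Figure D2:**
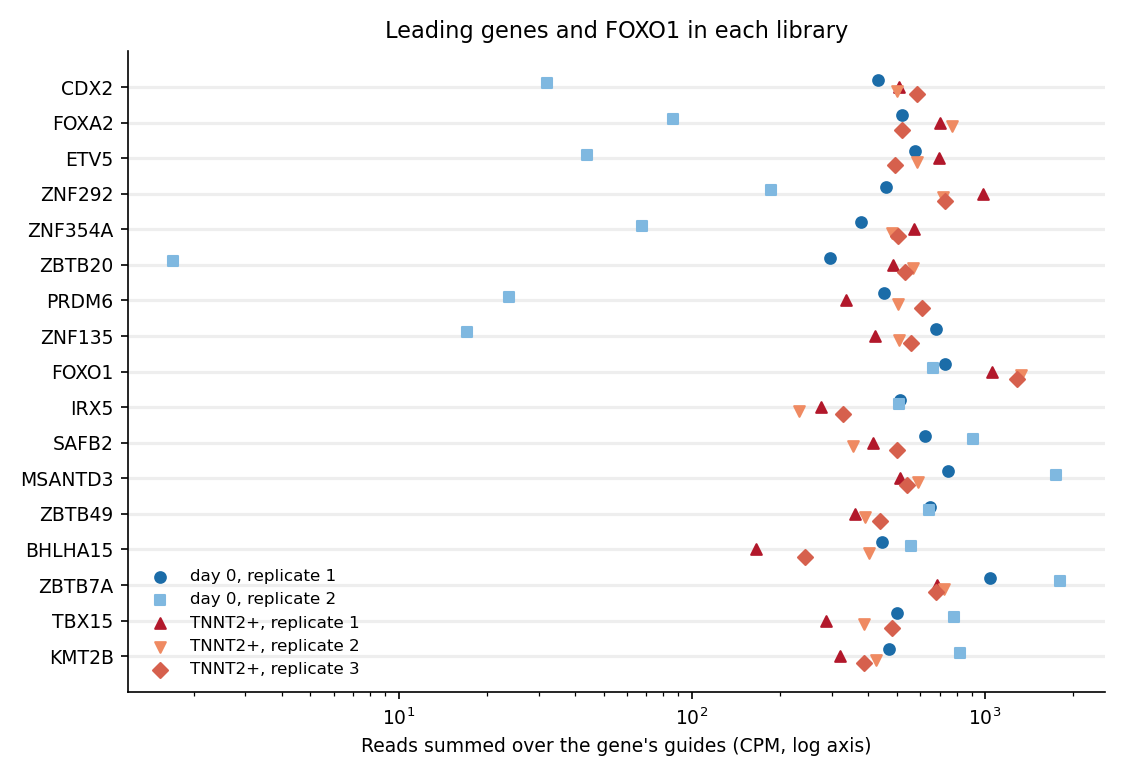
Reads summed over each gene's guides in CPM (log axis) for the 8 genes per direction with the smallest p in the gene fit and for FOXO1, 1 symbol per library. For the genes that led toward gain, day 0 replicate 2 (light squares) lies to the left of all other symbols. Day 0 replicate 1 (dark circles) lies among the TNNT2+ symbols for ETV5 and PRDM6, to their right for ZNF135 and to their left for the others. For the genes that led toward loss all TNNT2+ symbols lie to the left of both day 0 symbols.

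The number of genes called changed with the day 0 library used. Against day 0 replicate 1 alone, limma called 0 of 1621 genes in either direction (0% each), with 39 higher (2.41%) and 16 lower (0.987%) at an unadjusted p under 0.05. Against day 0 replicate 2 alone, it called 68 higher (4.19%) and 967 lower (59.7%). With library totals these were 249 (15.4%) and 124 (7.65%), of which 192 were called in the same direction under both scalings and 0 in opposite directions. In each of these fits the spread came from the TNNT2+ libraries, and the lone day 0 library was assumed to vary like them. Both fits share the TNNT2+ libraries.

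The genes called higher with the smallest p against replicate 2 alone were nearly absent from that library. ZBTB20, given above, had the smallest p, followed by SP140, ZNF135 and PRDM6. Guides against SP140, a bromodomain protein of immune cells, summed to 411 and 0.906 CPM at day 0 and 249, 462 and 412 CPM in TNNT2+ cells. All 7 of its guides had under 10 reads in replicate 2, and it was the only gene for which this held. Its value was 8.21 against replicate 2 alone and -0.17 against replicate 1 alone. The genes called lower with the smallest p were among the most frequent in replicate 2. SOX1, a SoxB1 factor of neural progenitors, summed to 754 and 1706 CPM at day 0 and 539, 637 and 675 CPM in TNNT2+ cells, with -1.51 against replicate 2 alone and -0.28 against replicate 1 alone. ZNF280A summed to 363 and 1438 CPM at day 0 and 591, 401 and 401 CPM in TNNT2+ cells, and its value went from -1.69 to 0.35 with replicate 1, a change of sign.

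**Figure D3:**
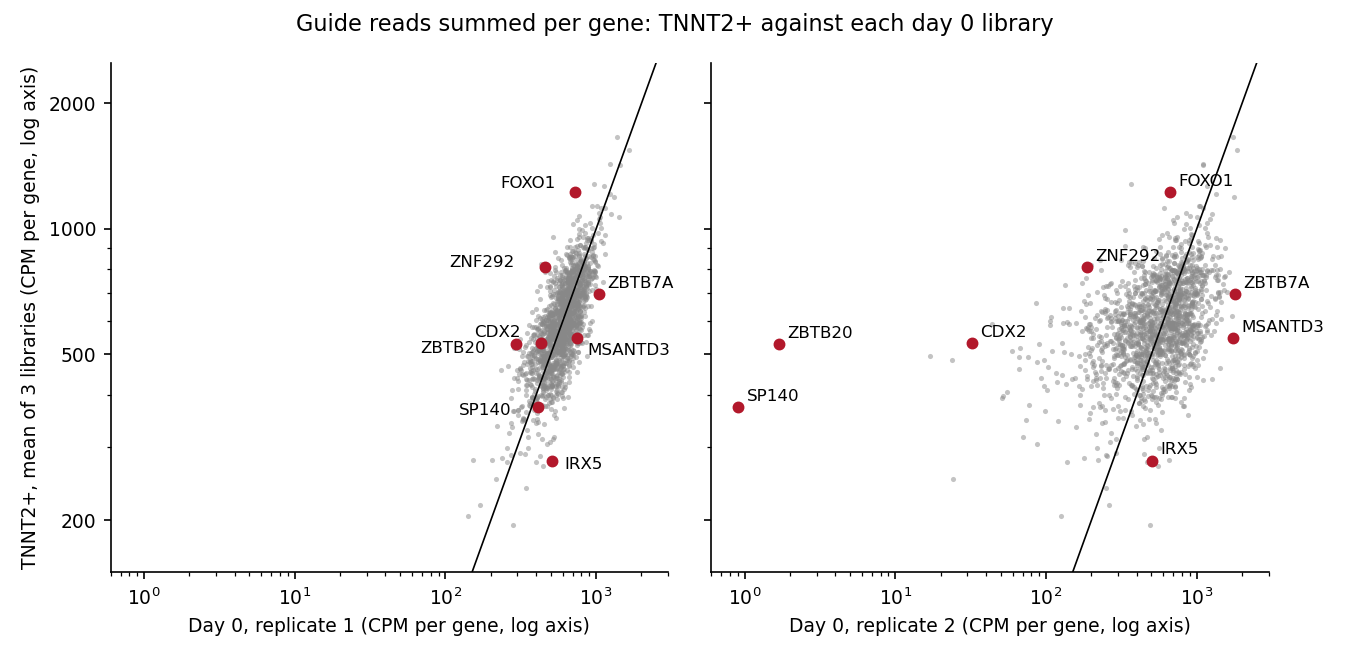
Mean CPM per gene of the 3 TNNT2+ libraries against CPM in day 0 replicate 1 (left) and replicate 2 (right), both axes log, with the line of equality and 8 labelled genes. Genes lie close to the line on the left and scatter widely on the right, where SP140 and ZBTB20 lie at 0.906 and 1.69 CPM, while FOXO1 lies above the line and IRX5 to its right in both panels.

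Guides against cardiac regulators lay on both sides of the median of all genes. Guides against NKX2-5, a homeobox factor of heart progenitors, summed to 764 and 669 CPM at day 0 and 879, 781 and 765 CPM in TNNT2+ cells. All TNNT2+ libraries were slightly above both day 0 libraries, and the value was 0.14 ± 0.44 (limma adjusted p = 0.796). Guides against ISL1, a LIM homeobox factor of the second heart field, summed to 689 and 702 CPM at day 0 and 562, 562 and 531 CPM in TNNT2+ cells. These were below day 0 in all 3 libraries, with a value of -0.37 ± 0.41, with 6 of 7 guides lower than in day 0 replicate 1. GATA4, a zinc finger factor of heart and endoderm, had -0.31 ± 0.41, but 0.070 against replicate 1 alone. TBX5, a T-box factor of the left ventricle and atria, had 0.23 ± 0.45. MEF2C, a MADS-box factor of muscle genes, had -0.49 ± 0.45 and 0.17 against replicate 1 alone. The bHLH factors HAND1 and HAND2 had 0.038 ± 0.42 and -0.51 ± 0.50, with 0.14 and 0.040 against replicate 1 alone. GATA4, MEF2C and HAND2 thus turned positive without day 0 replicate 2.

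Over 18 cardiac regulators, 6 lay above and 12 below the median of all genes, and their median was -0.12, against 810 above and 810 below over all 1621 genes. None was called in the limma gene fit, and none had an unadjusted p under 0.05. Against day 0 replicate 1 alone the median of the list was 0.089, and against replicate 2 alone it was -0.20, so its sign turned with the day 0 library. Apart from NKX2-5 and ISL1, HEY2, a Notch effector of ventricular muscle, was the only member that did not overlap between groups, which makes 2 members higher and 1 lower, against 10.7% and 11.5% of all genes. It summed to 436 and 363 CPM at day 0 and 579.6, 568 and 531 CPM in TNNT2+ cells.

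Inducers of primitive streak and mesoderm were also spread around the median. Of 18 tested, 9 lay above and 9 below, with a median of -0.033. EOMES, a T-box inducer of the streak, had 0.053 ± 0.40, MESP1, the bHLH factor of cardiac mesoderm, had -0.45 ± 0.43, and TBXT, listed under its older symbol T, had 0.39 ± 0.39. T had -0.35 against replicate 1 alone and 1.17 against replicate 2 alone, which differ in sign. MIXL1, a homeobox factor of the streak, was lower in all TNNT2+ libraries, with 541 and 897 CPM at day 0 and 484, 425 and 511 CPM in TNNT2+ cells. Its value was -0.60 ± 0.43, and -0.18 against replicate 1 alone. Of its 7 guides, 4 were lower than in replicate 1, and 4 had under 10 reads in replicate 2. LEF1, a nuclear effector of WNT signalling, was higher in all of them, with 296 and 309 CPM at day 0 and 444, 605 and 532 CPM in TNNT2+ cells. LEF1 had a value of 0.75 ± 0.39 and 6 of 7 guides above day 0 replicate 1. Of the 18, 3 were higher and 2 lower in groups that did not overlap, against 10.7% and 11.5% of all genes. FOXH1, the SMAD partner in Nodal signalling, had 974 and 368 CPM at day 0 and 905, 1246 and 1699 CPM in TNNT2+ cells, a value of 1.02 ± 0.46 and overlapping groups.

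Lists for other fates also had medians near that of all genes. Pluripotency factors had 9 of 11 members above the median and a median of 0.15. POU5F1, the OCT4 factor of pluripotent cells, summed to 770.4 and 732 CPM at day 0 and 923, 862 and 801 CPM in TNNT2+ cells. Its TNNT2+ values were all above day 0 by a small margin, 0.16 ± 0.45, and the sign turned when guide log2 values were averaged. NANOG had 0.11 ± 0.41 and SOX2 0.32 ± 0.37, and SOX2 had -0.32 against replicate 1 alone. Endoderm factors had 8 of 12 above the median (0.11), led by FOXA2. Endothelial and blood factors had 7 of 13 above (0.013), with the smallest p for ERG, an ETS factor of endothelium, at -0.50 ± 0.44.

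Epicardial and stromal factors had 3 of 12 above the median (-0.17), with ZEB1, a driver of epithelial to mesenchymal transition, at -0.46 ± 0.44 and WT1, a zinc finger factor of epicardium, at -0.47 ± 0.46. Neural and skeletal muscle factors had 5 of 13 above, with the lowest median of the 11 lists, -0.25, and -0.13 against day 0 replicate 1 alone. SOX1, given above, and PAX7, a paired box factor of muscle satellite cells, at -0.60 ± 0.45 were lower at an unadjusted limma p under 0.05. The share over all genes was 6.91%. PAX7 had -0.13 against day 0 replicate 1 alone, with 4 of 7 guides higher, and -1.02 against replicate 2 alone. MYOD1, the bHLH factor of skeletal muscle, had -0.29 ± 0.42 with 7 of 7 guides below day 0 replicate 1 and 4 below replicate 2. Retinoid and second heart field factors had 8 of 16 above (0.048). Among them RXRG, a retinoid X receptor, had -0.77 ± 0.48.

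Genes that many cell lines need for growth had a median slightly below that of all genes. Of 18 tested, 7 lay above and 11 below the median, with a median of -0.20, -0.11 against day 0 replicate 1 alone and -0.080 against replicate 2 alone. YBX1, a cold shock domain protein that binds RNA, summed to 643 and 1109 CPM at day 0 and 502, 440.5 and 528 CPM in TNNT2+ cells and had -0.82 ± 0.45. MYC, the growth-promoting bHLH factor, summed to 379.8 and 417 CPM at day 0 and 386, 375 and 385 CPM in TNNT2+ cells, so that all 5 libraries lay between 375 and 417 CPM. CTCF, which organises chromatin loops, summed to 542 and 326 CPM at day 0 and 343, 368 and 346 CPM in TNNT2+ cells, and its value was -0.29 ± 0.39 and -0.60 against replicate 1 alone. None of the 18 was called, and NRF1, YBX1 and ZNF143 were lower at an unadjusted p under 0.05, where 6.91% of all genes were. Against day 0 replicate 1 alone NRF1, YBX1 and ZNF143 had -0.090, -0.38 and -0.23. With library totals their unadjusted limma p was 0.079, 0.016 and 0.054, so that NRF1 and ZNF143 no longer passed.

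Genes that restrain growth had 8 of 16 members above the median (-0.00795). FOXO1 was among the members above it and ZBTB7A had the lowest value of the 16. In groups that did not overlap, 2 members were higher, as were 10.7% of all genes, and 3 lower, as were 11.5% of all genes. At an unadjusted limma p under 0.05, 4 of the 16 were lower and 0 higher, against 6.91% and 0.864% of all genes. The FOXO1 paralogs FOXO3 and FOXO4 had 0.00569 ± 0.38 and -0.30 ± 0.43. Metabolic and hypoxia factors had 7 of 14 above (0.019). EPAS1, the hypoxia factor HIF2A, summed to 595 and 473 CPM at day 0 and 401, 409 and 379 CPM in TNNT2+ cells, and 7 of its 7 guides were below day 0 replicate 1 and 4 below replicate 2. ESRRG, an orphan nuclear receptor of oxidative metabolism, summed to 328 and 131 CPM at day 0 and 582, 458 and 479 CPM in TNNT2+ cells and had 1.24 ± 0.42, with 0.63 against replicate 1 alone. The lists were chosen with earlier results of these data known, and none was tested as a set. Members of these lists described beyond the one with the smallest p in each, and MSANTD4, were named after their values were seen. SMAD2, DPPA2, DPPA4, TAF1, HCFC1, CNOT3, RB1, NF1 and NF2, also on the lists, were not analysed here.

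**Figure D4:**
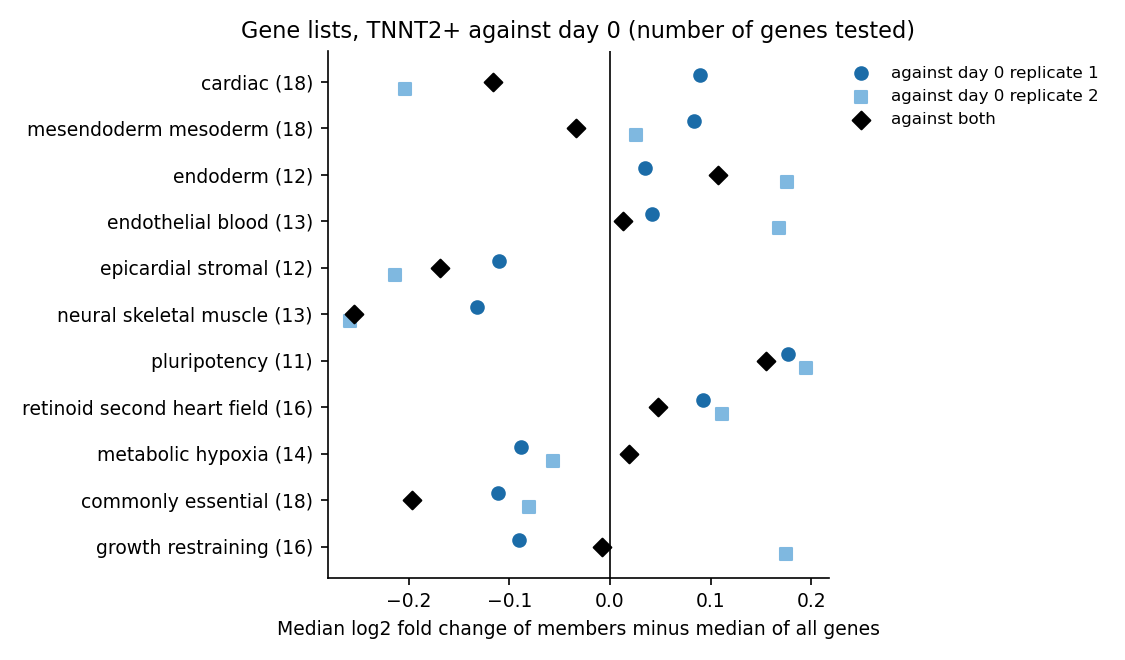
Median log2 fold change of each list's members minus that of all 1621 genes, against day 0 replicate 1 (circles), replicate 2 (squares) and both (diamonds), with the number of genes tested in parentheses. All medians lie within 0.3 of 0 on the log2 scale, and the cardiac list lies above 0 with replicate 1 and below 0 with replicate 2.

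Single guides showed the same dependence on the day 0 library. In the limma fit of 11340 guides with a mean value of at least 10, 0 were called in either direction (0% each), the smallest adjusted p was 0.0871, and 461 were higher (4.07%) and 421 lower (3.71%) at an unadjusted p under 0.05. edgeR on recovered reads called 0, and DESeq2 called 64 higher and 45 lower. Against day 0 replicate 1 alone 1 guide was called higher (0.00882%), and against replicate 2 alone 4077 were higher (36.0%) and 2196 lower (19.4%). Guide values here are not shifted by a median. The 100 control guides had a median of -0.22 and the 11240 targeting guides 0.041, and against day 0 replicate 1 alone 0.00818 and -0.087.

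The guide called against replicate 1 alone was guide 6 of CREB3L4, an endoplasmic reticulum transcription factor of the CREB3 family. It had 7 and 5 reads at day 0 and 5423, 3252 and 4234 reads in the TNNT2+ libraries. It was 1 of 46 guides with at least 100 reads in every TNNT2+ library and under 10 in both day 0 libraries, and its log2 fold change was 7.87 against replicate 1 alone (limma adjusted p = 0.0310). The other 6 CREB3L4 guides had between -0.35 and 2.53 against the same library. The gene summed to 429 and 586 CPM at day 0 and 889, 813 and 769 CPM in TNNT2+ cells, of which guide 6 alone made up 235, 139.5 and 159.7 CPM in the TNNT2+ libraries.

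The guides that led the guide fit toward gain targeted NR6A1, TCF4, SOX21 and FOXH1. Guide 7 of NR6A1, an orphan nuclear receptor of early development, had 129.6 and 1.22 CPM at day 0 and 325, 284 and 455 CPM in TNNT2+ cells. Guide 6 of FOXH1 had 411 and 0.867 CPM at day 0 and 354, 448 and 491 CPM in TNNT2+ cells, so that day 0 replicate 1 lay among the TNNT2+ libraries. Guides 1 of TCF4, a bHLH E protein, and of SOX21, a SoxB2 repressor, had 1.65 and 1.26 CPM in day 0 replicate 2 and 281 and 302 CPM in replicate 1. With a pseudocount of 100 in place of 10, these 4 guides passed (limma adjusted p = 0.00728 for each), with log2 fold changes between 3.05 and 3.51. Toward loss the leading guides were guide 4 of ZBTB7A, with 171 and 683 CPM at day 0 and 26.2, 105 and 78.9 CPM in TNNT2+ cells, and guides 6 of STAT5B, 4 of SOX1 and 6 of ZNF300. STAT5B, a transducer of cytokine and growth hormone signals, had 258 and 543 CPM at day 0 and 40.5, 136 and 122 CPM in TNNT2+ cells for that guide. All 3 TNNT2+ libraries were below both day 0 libraries for each of these guides of ZBTB7A, STAT5B, SOX1 and ZNF300.

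Agreement among a gene's guides was rare. Of 1553 genes with at least 7 guides tested, 2 (0.129%) had all guides higher and 17 (1.09%) all guides lower than in day 0 replicate 1, by mean log2 value over the TNNT2+ libraries. The 2 were FOS, a subunit of the AP-1 factor, and GATAD2A, a subunit of the NuRD chromatin complex. FOS summed to 558 and 520.3 CPM at day 0 and 760.0, 877 and 922 CPM in TNNT2+ cells. GATAD2A summed to 306 and 326 CPM at day 0 and 482, 519 and 547 CPM in TNNT2+ cells. Both were higher in all TNNT2+ libraries, with values of 0.62 ± 0.44 and 0.67 ± 0.39. The 17 included ZBTB49, BHLHA15, EPAS1 and MYOD1, given above, as well as SIM2, a bHLH-PAS factor, at -0.68 ± 0.40, SOX5, a SoxD factor, at -0.39 ± 0.40 and XBP1, the effector of the unfolded protein response, at -0.62 ± 0.40. PKNOX1 and ZBED2 were also among the 17, with groups that overlapped. PKNOX1 had 0.89 ± 0.46 and -0.41 against replicate 1 alone, with 6 of 7 guides above replicate 2. ZBED2 had -0.00465 ± 0.39, with 5 of 7 guides above replicate 2. GATAD2A, SIM2, SOX5, XBP1, PKNOX1 and ZBED2 were named after their values were seen.

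Some guides were near 0 in single libraries. For ZBTB49, guide 1 had 227 and 51.0 CPM at day 0 and 111, 70.1 and 125 CPM in TNNT2+ cells. Guide 3 had 12.2 and 173 CPM at day 0 and 0, 0.0429 and 36.6 CPM in TNNT2+ cells, so that 2 of the TNNT2+ libraries had almost none of it. Over all genes, 333 guides had under 10 reads in 1 TNNT2+ library but at least 100 in the other two and in day 0 replicate 1. Of these, 263 were missing from replicate 1, 43 from replicate 2 and 27 from replicate 3. Guides under 10 reads in all 3 TNNT2+ libraries numbered 26, of which 23 were also under 10 in both day 0 libraries. The other 3, guides 3 of TIGD6, ZHX2 and ZNF479, had 708, 122 and 1598 reads in day 0 replicate 1 and at most 2 in replicate 2. No guide with at least 100 reads in both day 0 libraries was lost from all 3 TNNT2+ libraries. In the other direction, 72 guides (0.634%) had at least 100 reads in every TNNT2+ library and under 10 in day 0 replicate 1, and for day 0 replicate 2 this number was 3299 (29.0%). The reads were counted after PCR without molecular identifiers, and such read numbers speak for counting error only.

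**Figure D5:**
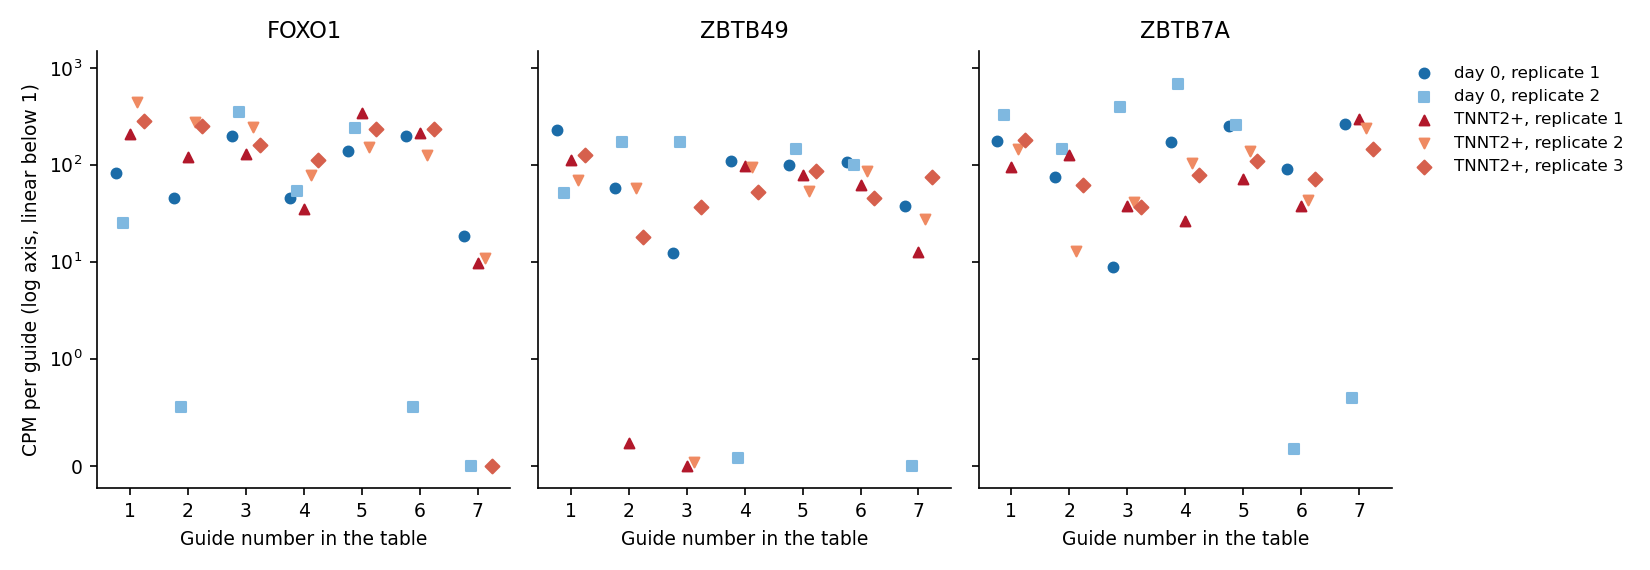
CPM of each of the 7 guides (log axis, linear below 1) of FOXO1, ZBTB49 and ZBTB7A, 1 symbol per library. FOXO1 guides 1 and 2 lie higher in all TNNT2+ libraries than at day 0, while the guides of ZBTB49 and ZBTB7A near 0 come from day 0 replicate 2 or from TNNT2+ replicates 1 and 2.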

How the data were processed

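The authors deposited a 2D table of a normalized signal per guide. Each value is a whole number of reads over a library-wide size factor: when each column was divided by its lowest non-zero entry, 100% of entries were whole to within 0.001. MAGeCK and hg38 are named in the submitters' processing notes; the version, the aligner and how values were normalized were not given in the sources used here. Guides were amplified from genomic DNA by PCR, per the labels' protocols. Gene values, log2(summed deposited signal + 10), were fitted with limma 3.58.1 (trend, eBayes, R 4.3.3) on the 5 libraries without covariates, two-sided, with Benjamini-Hochberg adjustment over 1621 genes. Guides were fitted alike where their mean was at least 10. edgeR 4.0.16 and DESeq2 1.42.0 on recovered reads were alternatives, as was robust rank aggregation with its analytic bound. Scripts were tested on simulated data. The text names the 8 genes per direction with the smallest p, a panel of cardiac and related genes, the member of each list with the smallest p, the 4 leading guides per direction and up to 4 genes per direction called against 1 day 0 library, plus others given as members of lists or said to be named after their values were seen. Comparison, lists and panel were chosen with earlier results of these data known. Gene symbols and positions are from RefSeq's GRCh38.p14 table, where 1600 target names matched by symbol and 8 by synonym. Same-numbered TNNT2+ and TNNT2- libraries are presented in the labels' protocols as fractions of 1 differentiation. Their deviations across genes correlated weakly, at 0.132, 0.106 and 0.192 for replicates 1 to 3, and libraries of different numbers were not compared. Guide sequences were not used here. Some genes counted in these totals are not reported here.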

Additional observations from a re-analysis of the deposited data

How the results depend on the processing

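Day 0 is known from 2 libraries, of which 1 has under 10 reads for 3692 guides, so that precision rests on that library more than on read depth, and the deposited scaling shifts all genes. The 0 gene calls in each direction held with pseudocounts of 1 and 100, no filter, library totals, control guide scaling, edgeR, the TNNT2- libraries in the fit, robust eBayes and other gene values, and differed with DESeq2, which called 7 higher and 4 lower. DESeq2 on guides called 64 higher and 45 lower, and a pseudocount of 100 called 4 guides higher. Over fits that left out 1 library, gene calls ranged from 0 to 68 (higher) and 0 to 967 (lower), guide calls from 0 to 4077 and 0 to 2196, gene calls against day 0 replicate 1 alone from 0 to 1 and 0 to 0, those against replicate 2 alone from 52 to 75 and 832 to 1026, and those of TNNT2+ against TNNT2- from 0 to 2 and 0 to 1. The upper ends of the first 4 came without day 0 replicate 1. Against replicate 2 alone, calls (higher and lower) were 249 and 124 with library totals, 144 and 397 with control guide scaling, 224 and 169 with edgeR, 998 and 73 with the mean and 531 and 478 with the median of the guides' log2 values, 177 and 640 without each gene's most abundant guide, and 0 and 0 with rank aggregation. The cause was not tested.

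Of 43 named genes, 23 kept the sign of their value in all 19 alternatives. The sign turned with the mean of guide log2 values for POU5F1 (-0.25), PRDM14 (0.087), TBX15 (0.069), TBX5 (-0.00864) and ZNF300 (0.040). With the median of guide log2 values it turned for EOMES (-0.38), ERG (2.52), GATA4 (0.45), HAND1 (-0.47), MESP1 (0.10), NKX2-5 (-0.46), POU5F1 (-0.36), SOX21 (-0.28), TBX15 (2.88), TBX5 (-0.47) and ZNF300 (0.76). With rank aggregation, where the value is the median of the guides' fitted changes, it turned for EOMES (-0.087), ERG (2.34), GATA4 (0.51), HAND1 (-0.20), MEF2C (0.046), NR6A1 (-0.097), POU5F1 (-0.19), TBX15 (2.62), TBX5 (-0.14) and ZNF300 (0.26). Without the most abundant guide it turned for EOMES (-0.27), GATA4 (0.30), HAND1 (-0.19), NKX2-5 (-0.19), POU5F1 (-0.063), SOX21 (-0.35), TBX5 (-0.14) and TCF4 (-0.56). Leaving out 1 library turned it for EOMES (-0.031 to 0.22), GATA4 (-0.64 to 0.070), HAND1 (-0.018 to 0.14), HAND2 (-1.02 to 0.040), MEF2C (-1.11 to 0.17), SP140 (-0.17 to 8.21), T (-0.35 to 1.17), ZNF135 (-0.45 to 4.79), ZNF280A (-1.69 to 0.35) and ZNF300 (-0.75 to 2.74e-04), where the brackets give the lowest and highest value over left-out libraries. No sign turned with a change of pseudocount, filter, scaling, count test or variance model. The cause was not tested for any of these.

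Replicate numbers 1 and 2 are shared by day 0 and TNNT2+ libraries. Across genes, the difference between the day 0 libraries did not correlate with that between TNNT2+ replicates 1 and 2 (correlation -0.00430). Since day 0 replicate 2 is so uneven, this correlation cannot tell whether same-numbered libraries are paired. With a replicate block, gene calls stayed at 0 higher and 0 lower and guide calls at 0 and 0, and EOMES turned to -0.014. For TNNT2+ against TNNT2-, where the numbers pair the libraries, the block left 0 calls in each direction and gave FOXO1 -0.64 (limma adjusted p = 0.492), and it changed no call.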
